A study of Homo sapiens with 2 samples.

Results

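AP-1 is a family of basic leucine zipper transcription factors, and the 9 of its genes described here are FOS, FOSB, FOSL1 and FOSL2 (the Fos proteins), JUN, JUNB and JUND (the Jun proteins), and BATF and ATF3 (related proteins that pair with Jun). They were examined for GFI1 binding in NB4, an established human acute promyelocytic leukemia cell line that carries the PML-RARA fusion. Cross-linked chromatin of NB4 cells, for which no treatment is named, was immunoprecipitated and sequenced once with each of 2 antibodies against GFI1. The antibodies are named by their catalogue numbers ab21061 and sc8558. There was 1 library per antibody and hence no replicate, so no test between the antibodies was possible. Whether both libraries were made from a single culture is not stated. They also disagree on the target: the immunoprecipitation protocol speaks of the PML/RARα fusion protein and 1 sample title reads GFI2, whereas both antibody labels read GFI1 and were followed here. A list of peaks holds no RNA level, so neither the identity of the cells nor the expression of any gene could be checked from it.

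A peak was assigned to a gene when its midpoint lay inside the hg38 span of the gene or within 50 kb of it, a window that often holds other genes. By this rule 11 of 7687 ab21061 peaks and 10 of 7562 sc8558 peaks belonged to the family. They formed 8 of the 4853 shared regions, each the union of peaks of the 2 lists that overlap by at least 1 bp. The peaks were chosen by their called positions alone, and the score had no part in the rule. The 9 genes were proposed with earlier results of these data in view, so the counts below are a description.

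Fos and Jun proteins form dimers that bind the AP-1 site of many promoters and enhancers, and Fos proteins need a Jun partner to do so. FOS, JUN and several relatives are immediate early genes, switched on within minutes of a stimulus through MAP kinases and serum response factor, and AP-1 takes part in the maturation of myeloid cells towards monocytes and macrophages. GFI1 is a zinc-finger repressor that recruits histone demethylase and deacetylase complexes, binds sites with an AATC core and favours the granulocyte over the monocyte lineage.

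Shared regions lay near FOS, FOSL2, JUN and ATF3, that is 4 of the 9 genes, and numbered 3, 2, 2 and 1. JUND had 1 peak of ab21061 and none of sc8558. FOSB, FOSL1, JUNB and BATF had no peak of either list. Over all 20033 protein-coding genes the same rule gave a shared region to 24.3% and left 61.7% without any peak. At least 1 ab21061 peak was found for 31.7% of all genes and for 5 of the 9 members, and at least 1 sc8558 peak for 32.4% and for 4 members. The median number of shared regions per gene was 0 both for the family and for all coding genes. The share of members with a shared region, 4 of 9 (44.4%), was above that of coding genes, but it rests on few genes and was not tested. Of the members 3 held at least 2 shared regions, against 5.93% of coding genes, and FOS held 3, against 1.82%.

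**Figure D1:**
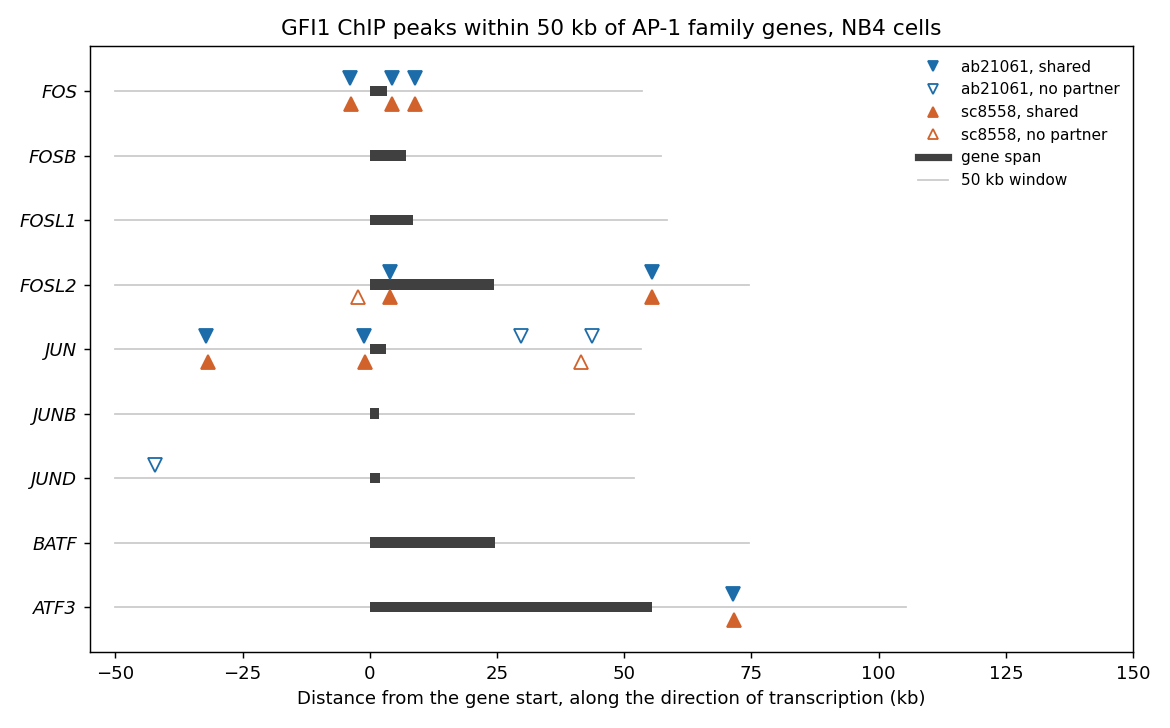
Midpoints of the peaks of each antibody along the windows of the 9 genes, as distance in kb from the gene start in the direction of transcription (FOSL1, without a strand in the table used, is drawn from its lower coordinate). Filled symbols overlap a peak of the other antibody and open symbols do not. Of the 8 shared positions only the one in FOSL2 at 4.0 kb lies inside the span of a family member.

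None of the shared regions covered the start of a family member. Of the 9 members 8 matched the table of promoters taken from RefSeq (GRCh38.p14), with 9 windows in all since ATF3 has 2 starts; FOSL1 did not match. Of these 9 windows, each reaching from 250 bases before to 50 bases after a start, 0 were overlapped by a peak. Over all 22198 windows of coding genes 2.02% were overlapped by an ab21061 peak and 2.09% by an sc8558 peak, so a count of 0 among 9 does not set the family apart. The nearest approach was at JUN, where the sc8558 peak began 49 bp beyond the window and the ab21061 peak 283 bp beyond it. Both peaks covered instead all 300 bases of the promoter window of JUN-DT, the noncoding RNA gene transcribed away from JUN.

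The promoter of JUN-DT is shown because it is the promoter in these loci that lies inside peaks of both antibodies, and those of JUN, FOS and FOSL2 because these genes held the most shared regions while their own promoters lay outside them. Each sequence is the 250 bases before the start, 5′ to 3′ on the strand of the gene, from the RefSeq table (GRCh38.p14). They lie at chr1:58784901-58785150 (plus strand) for JUN-DT, chr1:58784048-58784297 (minus) for JUN, chr14:75278578-75278827 (plus) for FOS and chr2:28392608-28392857 (plus) for FOSL2. Capitals mark the GFI1 core AATC or its reverse complement GATT. They would also mark the AP-1 site TGANTCA and the cyclic AMP response element TGACGTCA, but neither exact string occurred in these 4. Variants that differ by a letter were not searched for, such as tgacatca in the JUN sequence.
JUN-DT: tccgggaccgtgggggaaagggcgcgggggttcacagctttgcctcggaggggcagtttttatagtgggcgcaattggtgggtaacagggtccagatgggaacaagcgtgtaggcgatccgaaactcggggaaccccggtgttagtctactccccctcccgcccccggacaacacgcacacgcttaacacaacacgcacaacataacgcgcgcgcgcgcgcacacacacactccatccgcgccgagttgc
JUN: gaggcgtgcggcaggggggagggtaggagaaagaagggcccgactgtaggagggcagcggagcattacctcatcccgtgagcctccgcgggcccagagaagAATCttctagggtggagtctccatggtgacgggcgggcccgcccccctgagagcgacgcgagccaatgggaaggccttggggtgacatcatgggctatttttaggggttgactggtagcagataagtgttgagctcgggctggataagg
FOS: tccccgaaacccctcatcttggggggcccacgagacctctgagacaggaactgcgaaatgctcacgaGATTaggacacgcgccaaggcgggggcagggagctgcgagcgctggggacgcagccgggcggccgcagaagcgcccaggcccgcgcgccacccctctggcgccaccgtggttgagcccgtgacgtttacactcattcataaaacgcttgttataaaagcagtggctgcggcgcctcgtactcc
FOSL2: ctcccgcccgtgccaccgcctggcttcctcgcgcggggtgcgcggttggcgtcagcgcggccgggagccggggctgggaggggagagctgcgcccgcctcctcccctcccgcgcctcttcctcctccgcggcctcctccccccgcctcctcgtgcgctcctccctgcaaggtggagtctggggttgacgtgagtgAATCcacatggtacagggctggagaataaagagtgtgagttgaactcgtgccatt
The 250 bases of the JUN-DT promoter, which lie under both peaks, held 0 matches to the GFI1 core. The other bases under these peaks were not searched. JUN, FOS and FOSL2 each held 1 match, beginning 149, 183 and 55 bases before the start.

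The core is short and common. Searched on both strands, AATC was present in 5 of the 9 member promoters and in 61.5% of the 22196 promoters of coding genes that could be searched. The longer GFI1 site TAAATCAC, which contains the core, was in none of the 9 and in 0.478% of all. TGANTCA was in none and in 5.36% of all. TGACGTCA was in the JUND promoter alone among the members, 200 bases before the start, and in 2.01% of all promoters. The RUNX site TGTGGT was in the BATF promoter alone among the members and in 9.36% of all. The GC box GGGCGG was in 7 of 9, with 5 matches in JUND, and in 53.7% of all. The CArG box of serum response factor was in none of these windows and in 1.18% of all, and bases farther upstream were not searched. These are matches of letters to set patterns in a window of 250 bases, and variant sites were not counted. The matches say nothing of whether a factor binds, and the windows do not include the bases under most of the peaks.

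FOS, which encodes the founding Fos protein, spans chromosome 14 from 75278828 to 75282230 on the plus strand and was flanked by peaks on both sides. Both antibodies gave 3 peaks, and each peak had a partner in the other list. The region before the gene, from 75274501 to 75275471, was centred 3.84 kb upstream of the start and scored 67.28 with ab21061 and 96.53 with sc8558. The score is the peak caller's own value for each peak and was used to rank peaks within a list, not to compare the lists. The middle region, from 75282597 to 75283712, was centred 0.925 kb past the finish of FOS and scored 123.27 and 73.24. It therefore lay wholly beyond the annotated span of the gene, with its midpoint 4.33 kb from the start. A shared region centred within 1 kb of the finish was found for 57 of the 15842 coding genes whose strand was known (0.36%), and one within 1 kb of the start for 1.99%. The last region, from 75287350 to 75288255, was centred 8.97 kb from the start and scored 211.5 and 121.58. It held the highest score of the locus in both lists, whereas the order of the other two differed between the lists. The midpoints of the partner peaks were 92.5, 8.5 and 56.5 bp apart. No other coding gene lay in the window, and FOS had the nearest coding gene end for all 3 regions.

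JUN, the founding Jun gene, has no intron and spans chromosome 1 from 58780791 to 58784047 on the minus strand. It drew the most peaks of the family, 4 with ab21061 and 3 with sc8558, of which 2 pairs overlapped. The region upstream of the start, from 58784347 to 58785623, began 300 bp from the start of JUN, was centred 0.938 kb from it and extended over the start of JUN-DT at 58785151. Its scores were low in both lists, 64.88 and 58.18, at ranks 5328 of 7687 and 6063 of 7562. A shared region centred within 1 kb of the start was found for 1.99% of the 15842 coding genes whose strand was known. A stronger region, from 58815168 to 58816817, lay 31.9 kb upstream of JUN, within the span of JUN-DT and over the end of another noncoding gene, LOC101926907. Its scores of 182.36 and 162.51 placed it at ranks 1197 and 1341. The partner peaks were 367 bp apart at their midpoints, the widest offset in the family, with 916 bp in common.

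The other peaks around JUN lay beyond its finish, within the noncoding gene LOC112268263, and did not overlap. The ab21061 peak from 58739917 to 58740746 scored 115.96, and the nearest sc8558 peak, from 58742249 to 58742753 with a score of 51.6, was 1502 bp away. A second ab21061 peak, from 58754033 to 58754579, scored 59.5 and was 11279 bp from any sc8558 peak. The first of these was the highest-scoring family peak without a partner. Among all ab21061 peaks with scores of 100 up to 150, 82.8% were overlapped by sc8558.

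FOSL2, which encodes FRA2, spans chromosome 2 from 28392858 to 28417317 on the plus strand and held the highest ab21061 score of the family. A region within the gene, from 28396396 to 28397258, was centred 3.97 kb past the start and scored 70.29 with ab21061 and 61.03 with sc8558. The table used gives no exons, so its place in the transcript was not read. A region past the gene, from 28447768 to 28448855, was centred 31.0 kb beyond the finish, inside the noncoding gene LOC102723530, and scored 234.61 and 152.01. These scores ranked 819 and 1495 in their lists, and 996 bp of the peaks overlapped, which is the whole of the sc8558 peak. A peak of sc8558 alone, from 28389873 to 28391232, was centred 2.31 kb upstream of the start within the antisense gene FOSL2-AS1 and scored 64.35. The nearest ab21061 peak was 5163 bp away, the one inside the gene.

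ATF3, a stress-induced partner of Jun proteins, spans chromosome 1 from 212565407 to 212620777 on the plus strand. It had 1 shared region, from 212636517 to 212637312, with scores of 61.36 and 55.36 and 477 bp in common. This region was centred 16.1 kb past the finish of ATF3, inside the noncoding gene LINC02773, and nearer to GARIN4, whose end was 10.1 kb from the ab21061 midpoint. The same region also fell within the window of BATF3, another AP-1 relative, at 49.5 kb from that gene. Both promoter windows of ATF3 were far from it, the closer at 21449 bp.

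JUND, a Jun gene expressed in most cell types, spans chromosome 19 from 18279694 to 18281622 on the minus strand. Its 1 peak, of ab21061, ran from 18323403 to 18324260, scored 74.58 and lay 42.2 kb upstream of JUND. It was far closer to LSM4, an RNA-processing gene, being centred 0.756 kb from that gene's end and on the side of its start. No sc8558 peak lay within 67959 bp of it.

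The remaining 4 genes had their nearest shared region well outside the window. JUNB, a Jun gene often opposed to JUN in its effects, lies on chromosome 19 from 12791486 to 12793315, and its nearest shared region was 126 kb away. For BATF, a partner of Jun in lymphoid and dendritic cells on chromosome 14 from 75522469 to 75546992, the distance was 162 kb. For FOSB, on chromosome 19 from 45467996 to 45475179, it was 316 kb. For FOSL1, which encodes FRA1 and lies on chromosome 11 from 65892049 to 65900545, it was 385 kb, with an sc8558 peak without partner nearer, at 199 kb and with a score of 55.12. The median over all coding genes was 180 kb, with quartiles at 52.8 and 475 kb. JUNB and BATF thus lay nearer to a shared region than the median gene, and FOSB and FOSL1 farther but inside the quartiles.

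**Figure D2:**
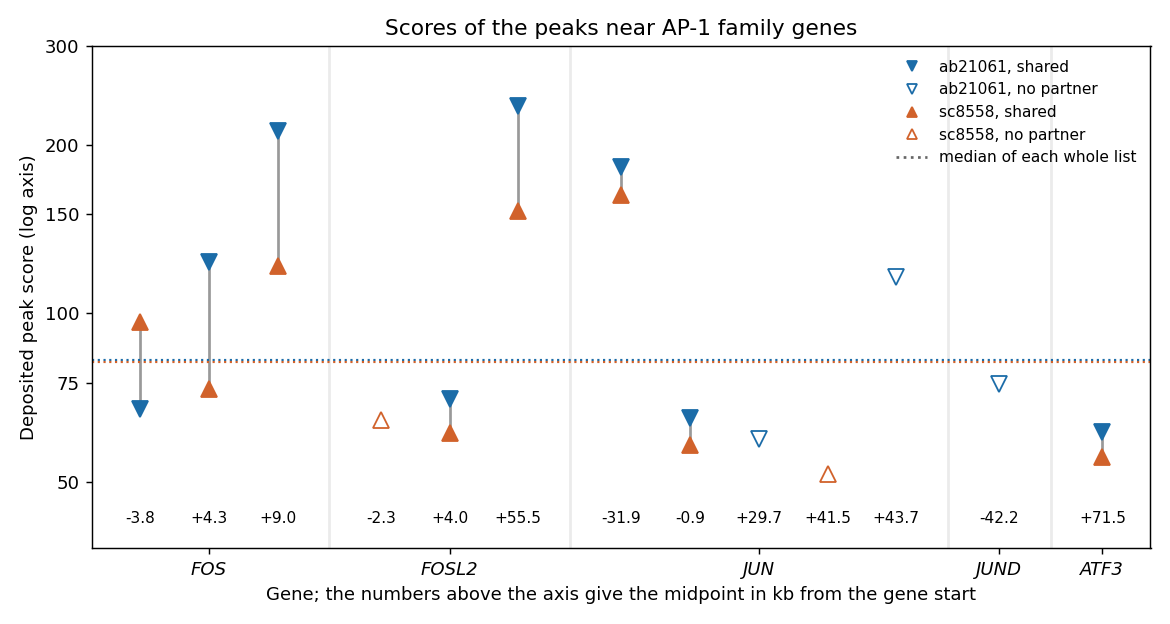
Deposited score of every peak near a family member (log axis), by gene and by position in kb from the gene start, with lines joining overlapping peaks and dotted lines at the median of each whole list. The distal regions of JUN, FOSL2 and FOS reach 162.51, 152.01 and 121.58 with sc8558 and more with ab21061. The region next to JUN, the one inside FOSL2 and that of ATF3 lie below both medians. Heights of the 2 antibodies are not on a common scale.

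Scores in the family were ordinary for these lists. They ran from 59.5 to 234.61 with a median of 74.6 for ab21061, and from 51.6 to 162.51 with a median of 68.8 for sc8558, against medians of 82.4 and 81.7 over the whole lists. A score of 100 or more was reached by 5 of 11 ab21061 peaks (45.5%, against 37.7% of the list) and by 3 of 10 sc8558 peaks (30.0%, against 37.4%). In both lists at once 3 of the 8 shared regions did so, 1 each at FOS, FOSL2 and JUN, and in each locus this was the shared region farthest from the gene start. Such a region was present for 3 of the 9 members and for 12.6% of coding genes. Ordered by the lower of its 2 scores, the distal JUN region stood in the top 21.7% of all shared regions, that past FOSL2 in the top 23.9% and the last FOS region in the top 32.5%. The 5 other regions stood between the top 64.0% and the top 88.2%.

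The antibodies overlapped at most family peaks. Of the ab21061 peaks 8 of 11 (72.7%, exact Clopper-Pearson 95% interval 39.0 to 94.0) had an sc8558 partner, and of the sc8558 peaks 8 of 10 (80.0%, 44.4 to 97.5) had an ab21061 partner. The shares over the whole lists, 63.7% and 65.0%, lay inside these intervals, which cover counting error only. Both family shares count the same 8 overlapping pairs. Several peaks come from the same locus and are not independent, so the intervals are no test. Among the weakest peaks, with scores from 50 up to 75, 4 of 6 family peaks were overlapped in either list, where the lists as a whole gave 38.3% and 39.5%. Between 100 and 150 the ab21061 list had 1 of 2 family peaks overlapped, against 82.8% of the list, and the sc8558 list 1 of 1, against 87.1%. At 150 and above all 5 family peaks were overlapped, and in the lists 98.2% and 98.6% of peaks between 150 and 300 were.

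The members with a shared region had fewer coding neighbours in their windows than the other members, a property that the rule did not use. FOS, FOSL2 and JUN had no other coding gene in their windows and each held at least 2 shared regions. ATF3 had 1 coding neighbour and BATF 2, FOSB and JUND had 4 each, JUNB 8 and FOSL1 10. Among these, ATF3 alone had a shared region. Over all coding genes the number of neighbours went with little difference: a shared region was found for 21.3% of the 2256 genes without a coding neighbour, for 26.8% with 1 to 2, for 23.7% with 3 to 5, for 20.1% with 6 to 10 and for 22% with 11 or more. These groups also differed in gene span, with medians of 51.9 kb without a coding neighbour and 5.94 kb with 11 or more. Their windows were therefore not of like length. The split inside the family was noticed in the data and was not tested. Most family members are short, and among the 14291 coding genes no longer than ATF3, the longest member at 55.4 kb, 20.9% had a shared region.

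The count of members depended little on the width of the window. Within 10 kb of the span 3 members had a shared region, FOS, FOSL2 and JUN, against 12.8% of coding genes. Within 100 kb there were 5, with JUND added, against 35.9%. The farthest peak inside was that of JUND at 42.2 kb. The first outside was a shared region 52.3 kb past FOS, from 75333909 to 75335129, with scores of 122.06 and 142.31, which had no nearer coding gene end than that of FOS. At 87.2 kb from JUND lay a shared region with scores of 880.74 and 966.17, higher than any inside the windows. Its ab21061 peak covered the start of MPV17L2, on chromosome 19 at 18193218, and its sc8558 peak ended short of that start, at 18193109.

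Other genes of the pathway were counted in the same windows. Of 16 genes for proteins that pair with or bind like AP-1, 4 had a shared region (25%, against 24.3% of coding genes). These were CREB1 (59.22 and 74.69), BATF3 (61.36 and 55.36, the region shared with ATF3), NFE2L2, which encodes the oxidative stress regulator NRF2 (54.25 and 63.92, centred 1.34 kb upstream of its start), and MAF (51.85 and 77.11). All of them were low scores, and 0 of the 16 had a region at 100 or more in both lists. JDP2, which lies next to BATF and encodes a repressor that binds with Jun, had no peak.

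Of 20 genes for kinases and serum response factors upstream of FOS and JUN, 7 had a shared region (35.0%, against 24.3% of coding genes). This comparison did not take gene span into account, and longer genes have longer windows. The highest were ELK4, a cofactor of serum response factor at the FOS promoter (516.69 and 514.5, 2.56 kb past the gene), MAP3K7, which encodes the kinase TAK1 (837.67 and 435.45, inside the gene), RPS6KA5, which encodes the kinase MSK1 (346.22 and 476.14, inside the gene), and MAPK10, which encodes JNK3 (351.15 and 161.88, inside the gene). SRF itself had no peak, nor did MAP2K3, MAP2K4, MAP2K6 and MAP2K7, and MAPK8 had 1 peak of each list without overlap. Of 16 immediate early genes induced together with FOS, 7 had a shared region (43.8%). Within 10 kb only 1 of the 16 did, against 12.8% of coding genes, so the list went from above to below the share of all genes. The highest were EGR2 (384.44 and 503.61, 34.4 kb from the gene) and the phosphatase gene DUSP1 (263.52 and 247.95, 2.61 kb from the gene). Next came ZFP36, which encodes an RNA-destabilising protein (204.14 and 279.06, at 21.6 kb), and NR4A1 (190.59 and 199.14, at 49.8 kb). EGR1, BTG2, CCN1, NR4A2, NR4A3 and PPP1R15A had no peak. A region at 100 or more in both peak lists was present for 5 of the 20 upstream genes and for 5 of the 16 immediate early genes, against 12.6% of coding genes. These shares too were not matched for gene span and were not tested.

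**Figure D3:**
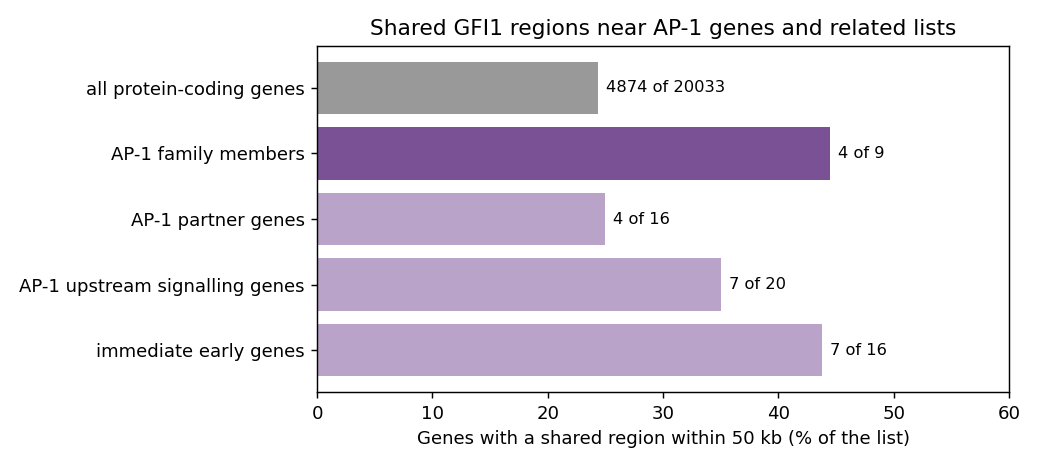
Percent of genes with a shared region within 50 kb of the gene span, for all protein-coding genes (4874 of 20033), the 9 family members (4) and the 3 lists of related genes (4 of 16, 7 of 20 and 7 of 16). The family and the immediate early genes stand at 44.4% and 43.8% (1 of 16 for the latter within 10 kb), the AP-1 partners near the 24.3% of all coding genes.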

How the data were processed

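Chromatin of NB4 cells was immunoprecipitated with 2 antibodies against GFI1 and sequenced, 1 library each. The submitters' processing notes name the aligner Bowtie2 (2.2.9), the peak caller MACS (1.4.2) and the build hg38. Their options, any read filter and the control are not given in the sources. The authors deposited 1 list of peaks per library, each peak with a score, which in MACS rises as the p-value of the peak falls. Scores are not normalized between libraries, and the depth is unknown.

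Peak starts were converted to 1-based positions. Gene spans, types and promoters came from RefSeq tables (GRCh38.p14) without exons; strand was read from the promoter table. Peaks were assigned by midpoint to gene spans with 50 kb on either side, and overlap counted from 1 bp. Promoters were searched for the motifs on both strands. All coding genes under the same rule served as background. With 1 library per antibody no p-value was computed. Members and lists were chosen with earlier results of these data known. Every member is named, every peak near it is given, and of each related list the 4 genes with the highest lower score; other genes named without a shared region were chosen after their values were seen. Overlap counts were tested on simulated data against direct enumeration. Software was Python 3.11.15 with pandas 2.3.3, numpy 2.4.6, matplotlib 3.10.9 and scipy 1.17.1.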

Additional observations from a re-analysis of the deposited data

How the results depend on the processing

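Counts follow the window and the score by construction, since fewer or more peaks enter. With windows of 10 kb there were 5 ab21061 peaks, 6 sc8558 peaks and 5 shared regions, and 100% of the ab21061 peaks were overlapped. In these windows 12.8% of coding genes had a shared region. Of the related lists, 2 of 16 AP-1 partner genes, 6 of 20 upstream signalling genes and 1 of 16 immediate early genes did. With windows of 100 kb there were 17 and 16 peaks and 14 shared regions. With only peaks scoring at least 100 there were 5 and 3 peaks and 3 shared regions, 100% of the sc8558 and 60% of the ab21061 peaks were overlapped (80% and 72.7% over all scores) and 0 AP-1 partner genes had a shared region. At that score 5 of 20 upstream signalling genes and 5 of 16 immediate early genes had a shared region. Members having a shared region numbered 3 with 10 kb (12.8% of coding genes), 5 with 100 kb (35.9%) and 3 at the higher score (12.6%). Requiring 50% of both peaks to overlap left them at 4 (23.7% of coding genes), as did assigning peaks by any overlap with the window (24.5%). Both settings gave 8 shared regions. No paired analysis was possible because each antibody has 1 library, and for the same reason none was left out. Without the depth, a peak seen with 1 antibody cannot be read as binding that the other lacks.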
